A study of Schmidtea polychroa with 24 samples.

Results

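The first day of embryonic development was followed in Schmidtea polychroa, a freshwater planarian, by comparing RNA from cocoons taken 24h after deposition with RNA from cocoons taken 4h after deposition. These 6 libraries, 3 at each time, belong to a course of 24 libraries that also covers 32, 48, 72, 96, 120 and 168h. They were chosen by their labelled time alone, and every value per gene is a sum over the isoforms that the transcript assembler put into one gene. Embryos came from a sexual laboratory population, cocoons were kept at 20 °C in well plates, and the labels name no treatment that differs between times; cocoons were cleaned in dilute bleach before extraction. Each library pooled 4 whole cocoons and is labelled a biological replicate.

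A planarian cocoon holds several embryos among a large number of yolk cells, which are separate cells supplied by the mother and later taken up by the embryo. In animals in general the first RNAs of an embryo are maternal, loaded into the egg before it is laid. They are cleared while the embryo begins to transcribe its own genome, the maternal-to-zygotic transition. In these whole cocoons, embryo and yolk cells were ground together, so a lower level of an RNA in a cell type and fewer cells of that type cannot be told apart. The files do not pair assembler IDs with gene names, so the tissue label could not be checked against marker genes and no function is given for any gene. Only 4 IDs are printed, chosen by a rule, and other genes are given by rank, where rank 1 is the largest log2 fold change in its direction.

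The 24h libraries held 1868442, 3251481 and 2726978 estimated counts, and the 4h libraries held 5080636, 5204770 and 3983288. The table listed 22365 assembler genes, of which 15587 had enough counts to be tested. Levels are in CPM, counts relative to the size of the library after TMM scaling, and 3 counts over all libraries of a time corresponded to 0.365 CPM at 24h, against 0.188 CPM at 4h. The 100 most abundant genes took 48.7% ± 3.59 of the counts at 24h, against 41.3% ± 1.73 at 4h (SD, n = 3 each), a difference with an exact two-sided permutation p of 0.1, the smallest that 3 against 3 allows. The single most abundant gene took 23.0% ± 4.64 at 24h, against 15.0% ± 1.12 at 4h (SD, n = 3 each, exact permutation p = 0.1). In the number of genes at 1 CPM or more the times overlapped, with 11350, 10830 and 10917 genes at 24h, against 9848, 13056 and 11053 at 4h (exact permutation p = 0.8). One library of each time was least like the other 2. Spearman's rho across genes was 0.879 and 0.866 for 24h replicate 3 with the others, beside 0.902 between them, and 0.853 and 0.909 for 4h replicate 1 with the others, beside 0.926 between them. For the 9 pairs of a 24h and a 4h library, rho ran from 0.711 to 0.894 over 15587 genes. Values without single libraries are given where they move a result.

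Few genes passed the test for the first day when spread was estimated over the libraries of the whole course. Those that rose and those that fell differed in level and in size of change. With edgeR's quasi-likelihood test and a Benjamini-Hochberg adjusted p under 0.05, 50 genes rose (0.321% of the genes tested) and 101 fell (0.648%). The genes that rose had a median of 2.18 CPM at 4h, below the 3.67 CPM of the median gene tested. They changed by large factors, with a median log2 fold change of 4.09. The genes that fell were mostly abundant at 4h and changed by smaller factors, with a median log2 fold change of -1.49. The 4h levels also enter the calls, so part of this contrast in level at 4h is built in. Over all genes tested the median log2 fold change was 0. Without adjustment, 1550 genes had a p under 0.05 upward and 1555 downward. The number called depended on the fit: DESeq2 called 1190 genes, and edgeR on the libraries of the first day alone called 731. On counts simulated from edgeR's own model, the edgeR test recovered 34% of genes changed 4-fold. A gene without a call therefore cannot be taken as unchanged.

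**Figure D1:**
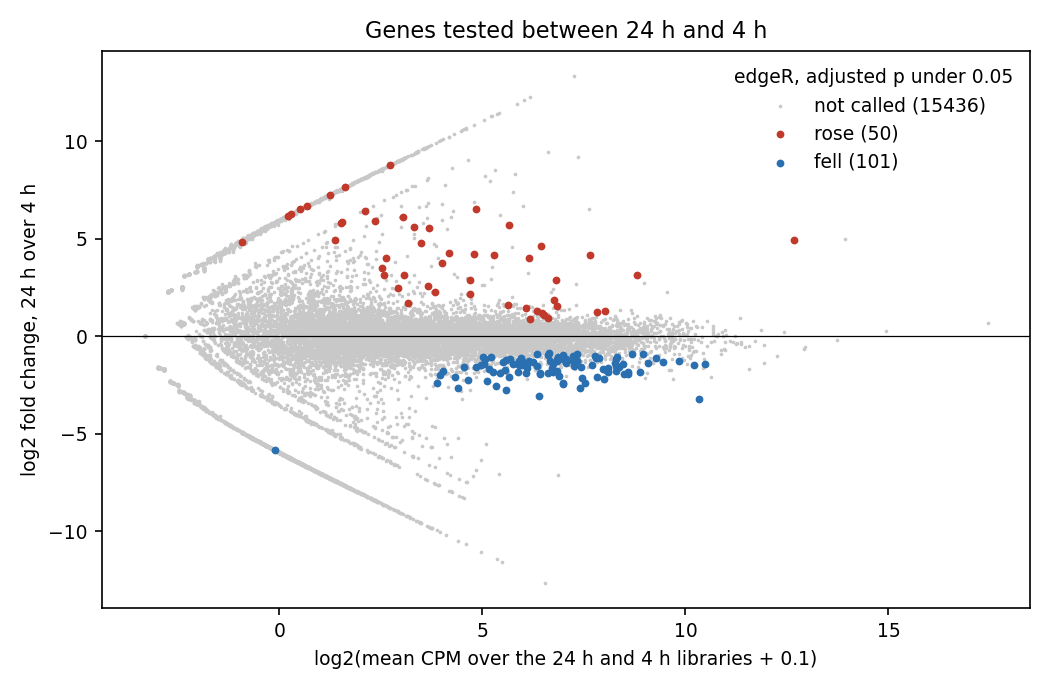
Each point is a gene tested between 24h and 4h, placed by its log2 mean CPM over the 6 libraries (x, after adding 0.1) and its log2 fold change, 24h over 4h (y). The 50 genes that rose (red) extend to a log2 fold change of 8.78, while most of the 101 that fell (blue) lie between -1 and -2 at higher levels.

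For all 50 genes that rose, every 24h library lay above every 4h library, as it did for 1295 genes or 8.31% of those tested. All 101 genes that fell had every 24h library below every 4h library, as did 2151 genes or 13.8% of those tested. Among the genes that rose, 38 had a log2 fold change of at least 2 and 26 of at least 4. Among the genes that fell, 19 reached a fall of at least 2 on the log2 scale and 1 of at least 4. The calls moved with the libraries in the fit. Leaving out 24h replicate 1 left 11 genes up and 32 down, and without 24h replicate 3 there were 20 up and 20 down. Without 4h replicate 3 there were 10 up and 46 down, without 4h replicate 2 there were 14 up and 98 down, and without 4h replicate 1 there were 37 up and 64 down. Leaving out 120h replicate 1, a library of neither time, gave 91 up and 351 down. Under DESeq2 the counts were 650 up and 540 down, and with only the 6 libraries of 24h and 4h in edgeR they were 293 up and 438 down. Leaving the 2 most abundant genes out of the scaling moved the median log2 fold change of all genes to -0.10 and gave 42 up and 152 down, so that 21.6% of calls were upward, against 33.1% with all genes.

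The genes that rose had a median of 27.5 CPM at 24h and 2.18 CPM at 4h, while the median gene tested had 3.34 CPM at 24h and 3.67 CPM at 4h. At 4h, 14 of the 50 had at most 3 counts over all libraries together, a state shared by 20.2% of all genes tested. Of these 14, 8 had no count in any 4h library, and set against a floor of 3 counts over those libraries they were at least 3.89-fold to at least 66.1-fold higher at 24h. With these genes placed at their bounds the median log2 fold change of the 50 was 3.64. Among the more abundant, 14 of the 50 had a mean of 100 CPM or more at 24h, and 3 had that level at 4h. The gene with the largest fitted rise had 14.8, 9.05 and 14.8 CPM at 24h and no count at 4h, which makes it at least 66.1-fold higher. The gene with the smallest rise, rank 50, had 101, 86.7 and 91.2 CPM at 24h, against 52.5, 41.1 and 57.3 CPM at 4h. Its libraries did not overlap either, but its log2 fold change was 0.89 ± 0.20 (SE, n = 3 each).

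One gene made most of the rise of the 50 called genes when it is summed in CPM. TRINITY_DN236788_c5_g3, with 4 isoforms in the assembly, had 18218, 4502 and 15379.9 CPM at 24h, against 331, 446 and 455 CPM at 4h. All 24h libraries were high, with replicate 2 the lowest of them, and none overlapped the 4h libraries. Its log2 fold change was 4.95 ± 1.06 (SE, n = 3 each, edgeR adjusted p = 0.0229). It accounted for 79.1% of the summed CPM that the 50 genes gained. The 50 genes together took 2.38, 0.839 and 2.03% of the counts in the 24h libraries, against 0.153, 0.154 and 0.14% in the 4h libraries. The second named gene of this direction, TRINITY_DN243168_c3_g4, had 202, 132 and 171 CPM at 24h, against 10.1, 5.3 and 4.89 CPM at 4h. The 24h and 4h libraries did not overlap, and its log2 fold change was 4.62 ± 1.08 (SE, n = 3 each, edgeR adjusted p = 0.0417). Both genes lost their call when single libraries were left out. TRINITY_DN236788_c5_g3 lost it without each 24h or 4h library except 24h replicate 2, with an adjusted p of up to 0.126 (without 4h replicate 3). TRINITY_DN243168_c3_g4 lost it without each of the 6 libraries, with an adjusted p of up to 0.216 (without 4h replicate 3), and under both other filters on low counts.

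Of the genes that rose, 9 were called in each of the 6 fits that left out one 24h or 4h library. The gene of rank 25 was the most abundant of these. It had 509, 315 and 319 CPM at 24h, against 27.6, 17.8 and 18.6 CPM at 4h, a log2 fold change of 4.16 ± 0.58 (SE, n = 3 each, edgeR adjusted p = 0.00139). That of rank 34 had 73.6, 20.7 and 42.1 CPM at 24h, against 6.08, 6.91 and 5.12 CPM at 4h. The gene of rank 16 was near the floor at 4h, with 29.7, 17.5 and 28.3 CPM at 24h, against 0.736, 0.321 and 0.466 CPM at 4h. A far more abundant gene with a log2 fold change of similar size did not pass the test. The second most abundant gene of the whole course had 53666, 15993 and 21498 CPM at 24h, against 1067, 873 and 907 CPM at 4h, with a log2 fold change of 5.00 ± 1.23 (SE, n = 3 each, edgeR adjusted p = 0.0567).

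The genes that fell had a median of 55.6 CPM at 24h and 158 CPM at 4h. Of the 101, 67 had a mean of at least 100 CPM at 4h, and 29 still had that level at 24h. All but 1 remained detected at 24h. The exception had no count at 24h and 1.47, 2.57 and 0.931 CPM at 4h, which makes it at least 4.8-fold lower. The 101 genes together took 0.951, 1.17 and 1.02% of the counts at 24h, against 3.14, 3.26 and 3.36% at 4h. The loss was spread over more genes than the gain, since the top gene made 10.9% of the summed fall and the top 5 made 30.3%.

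TRINITY_DN228216_c0_g1, with 1 isoform, was the most abundant of the genes that fell at 4h and had the largest summed loss. It had 121, 196 and 443 CPM at 24h, against 1471, 2618 and 2941 CPM at 4h. Every 24h library was far below every 4h library, although the 24h libraries also differed among themselves. Its log2 fold change was -3.21 ± 0.67 (SE, n = 3 each, edgeR adjusted p = 0.0198), and the call was lost without 24h replicate 1 (adjusted p = 0.137), 24h replicate 2 or 4h replicate 3. TRINITY_DN222514_c0_g1, also with 1 isoform, had 21.2, 20.7 and 13.1 CPM at 24h, against 149, 146 and 158 CPM at 4h. The 4h libraries agreed closely, and the log2 fold change was -3.04 ± 0.48 (SE, n = 3 each, edgeR adjusted p = 0.00479). It kept its call in all 16 alternatives that tested it.

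**Figure D2:**
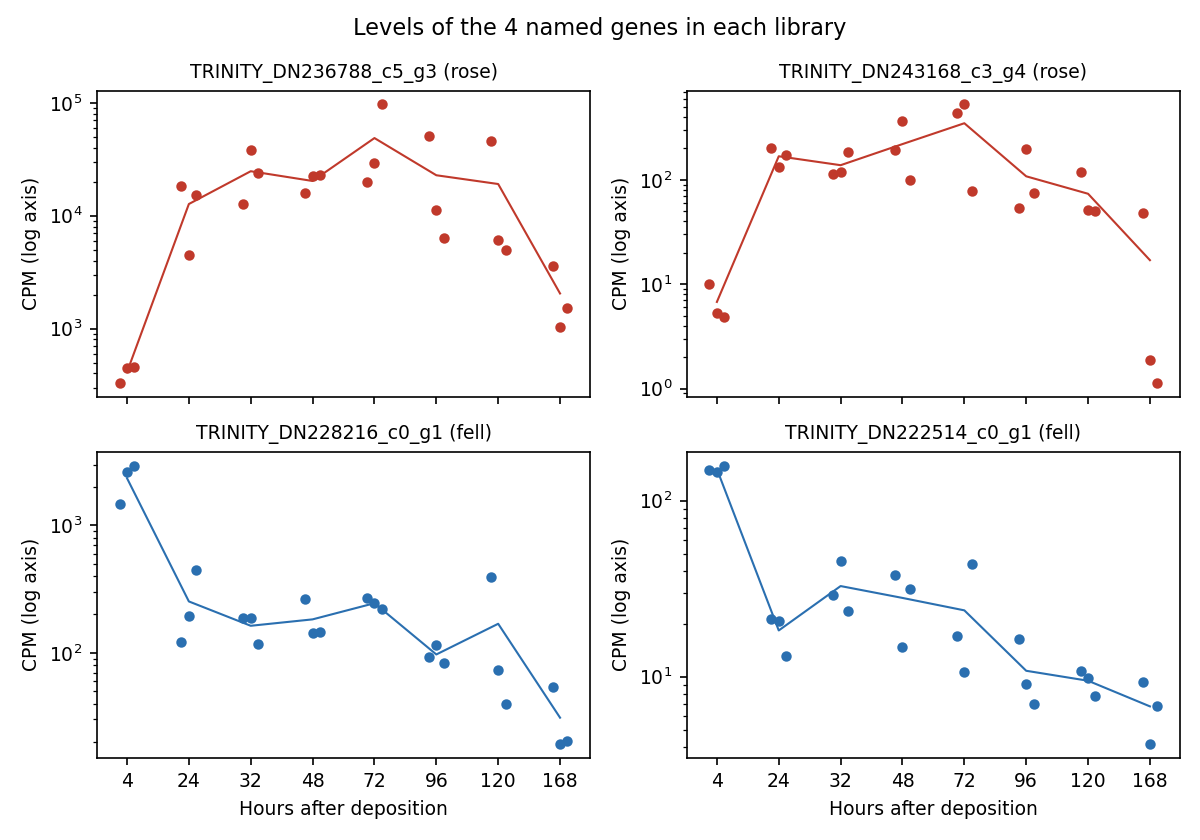
Each panel shows 1 named gene, with its CPM on a log axis (y) against hours after deposition (x). Points are the 3 libraries of a time and the line joins their means. The 2 genes in red stand above their 4h level from 24h to 120h in every library, and the 2 in blue stand below theirs from 24h to 168h.

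Of the genes that fell, 14 were called in each of the 6 fits that left out one library. The smallest adjusted p belonged to the gene of rank 18, with 75.2, 91.4 and 95.3 CPM at 24h, against 383, 326 and 391 CPM at 4h. The log2 fold change came to -2.07 ± 0.22 (SE, n = 3 each, edgeR adjusted p = 0.000124). Rank 5 had 39.2, 55.2 and 46.3 CPM at 24h, against 309, 250.2 and 319.7 CPM at 4h. Falls of smaller size were also called in very abundant genes, such as rank 60, which had 720.3, 875 and 771 CPM at 24h, against 2523, 1738 and 1998 CPM at 4h.

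The place of these genes among all genes was also read per length, from the authors' deposited table of scaled signal, whose ratio to the counts was nearly constant for each transcript across libraries (residual SD of 0.0039 on the log2 scale once the median of each library was removed). On that scale the median percentile of the genes that rose was 78.7 at 24h and 41.1 at 4h, where 50 is the median of all genes tested. The genes that fell had a median percentile of 87.9 at 24h and 94.9 at 4h. This scale rests on the same counts, and the 24h and 4h levels chose the genes. Part of any shift between the times is therefore built in. Among the 1000 most abundant genes per length, 12 of the genes that rose were present at 24 hours and 3 at 4 hours, and 27 of the genes that fell were present at 24 hours and 59 at 4 hours. A relative length, estimated from counts over the deposited values, had a median of 0.913 in 46 of the genes that rose and 0.891 in the 101 that fell, against 1 in all genes.

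Single isoforms seldom passed the test on their own. Of the genes that rose, 40 had more than 1 isoform, and of those that fell, 78 did. Among these, no tested isoform had the opposite sign in 27 of the 40 that rose and 45 of the 78 that fell. These counts include genes with at most 1 tested isoform, in which isoforms could not disagree. Counting genes with 1 isoform too, the test of the isoform with most counts passed in 6 of the 50 genes that rose and 10 of the 101 that fell, and no isoform of any of these genes was called in the opposite direction. Over all transcripts tested, 13 rose (0.0435%) and 10 fell (0.0334%). Near-identical copies of a gene could share reads, which could not be checked without sequences.

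At the later times the genes that rose differed among themselves, and their median was highest at 72h. Their median level was 2.18 CPM at 4 hours, 27.5 at 24 hours, 40.6 at 32 hours, 63.9 at 48 hours, 76.5 at 72 hours, 29.3 at 96 hours, 38.1 at 120 hours and 16.7 at 168 hours. Only 1 of the 50 was highest at 24 hours itself, while 7 were highest at 32 hours, 10 at 48 hours, 25 at 72 hours, 2 at 96 hours, 1 at 120 hours and 4 at 168 hours. At 168h the fitted log2 fold change against 4h was still above 0 in 44 of the 50, and in 8841 of all 15587 genes tested. The median gene tested had 3.67 CPM at 4 hours, 3.34 at 24 hours, 3.86 at 32 hours and 5.98 at 48 hours. It had 6.27 CPM at 72 hours, 5.25 at 96 hours, 5.94 at 120 hours and 8.1 at 168 hours. The genes that fell stayed low on the whole, with medians of 158 CPM at 4 hours, 55.6 at 24 hours, 58.6 at 32 hours, 49.9 at 48 hours, 48.2 at 72 hours, 49.6 at 96 hours, 62.7 at 120 hours and 56.4 at 168 hours. Of the 101, 83 were highest at 4h and 16 at 168h. These genes were chosen as higher at 4h than at 24h, so a highest level at 4h is partly built in.

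**Figure D3:**
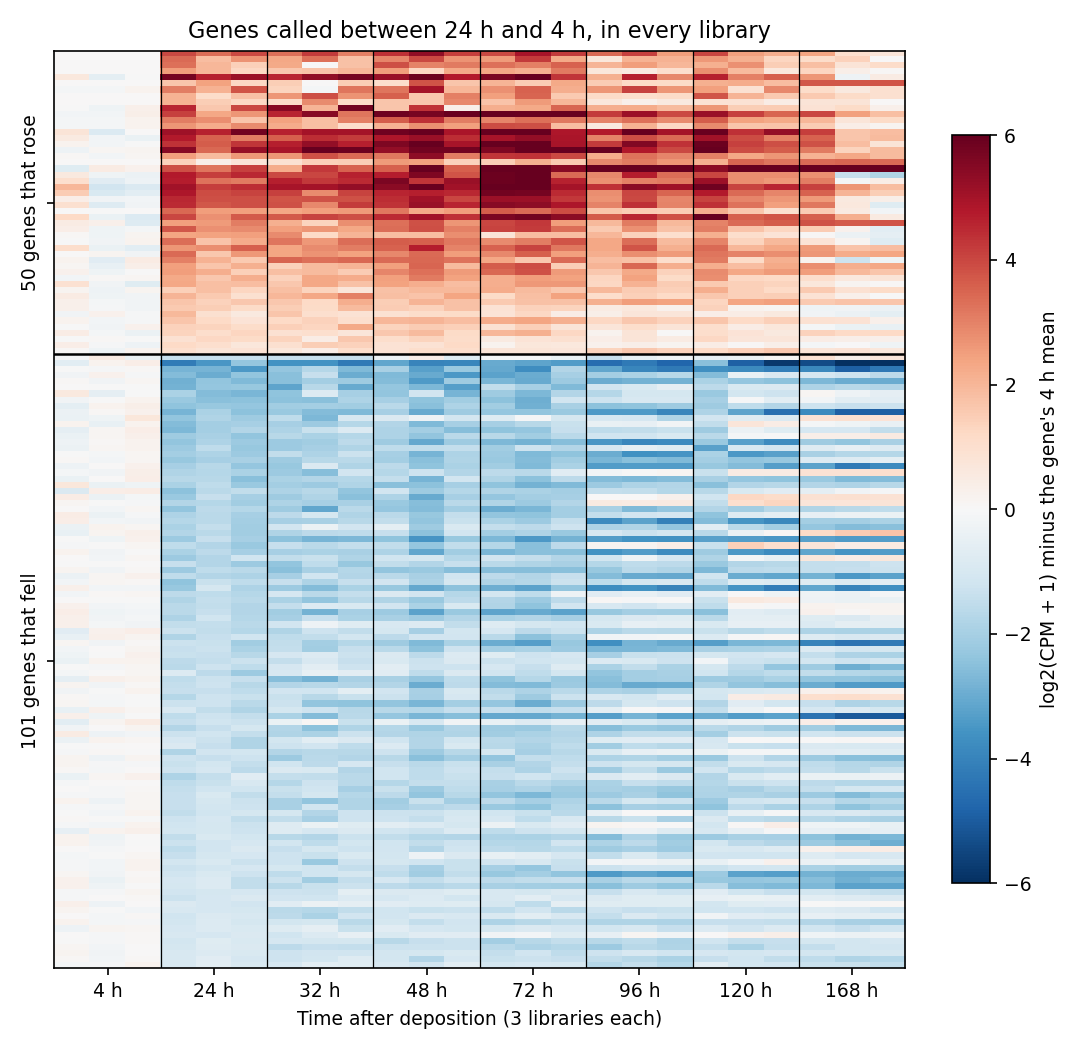
Rows are the 50 genes that rose and the 101 that fell between 24h and 4h, and columns are the 24 libraries in order of time, 3 for each. Colour is log2(CPM + 1) minus the gene's 4h mean. The upper block is deepest red from 48h to 72h and paler at 168h, and the lower block holds both darker blue rows and rows that return to red at 168h.

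Each gene was also placed on the line from its 4h level, set at 0, to its 24h level, set at 1. The 24h and 4h levels chose the genes, so part of any later move toward 0 is built in. The median place of the genes that rose was 0.967 at 32 hours, 1.18 at 48 hours, 1.24 at 72 hours, 0.84 at 96 hours, 0.935 at 120 hours and 0.441 at 168 hours. For the genes that fell it was 1.03 at 32 hours, 1.03 at 48 hours, 1.13 at 72 hours, 1.11 at 96 hours, 0.976 at 120 hours and 0.883 at 168 hours. Scaled by the size factors of DESeq2, the genes that fell lay closer to their 4h level late in the course, at 0.832 at 120h and 0.73 at 168h.

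Against 4h, the later times share the 4h libraries with the comparison that chose the genes, so their counts are given side by side only. Of the 50 genes that rose, 49 were called higher than at 4 hours at 32 hours, 50 at 48 hours, 48 at 72 hours, 45 at 96 hours, 47 at 120 hours and 32 at 168 hours. The share of all genes called higher was 2.03% at 32 hours, 4.56% at 48 hours, 5.29% at 72 hours, 22.3% at 96 hours, 24% at 120 hours and 31.9% at 168 hours. Of the 101 genes that fell, 89 were called lower than at 4 hours at 32 hours, 94 at 48 hours, 94 at 72 hours, 81 at 96 hours, 71 at 120 hours and 71 at 168 hours. The share of all genes called lower was 2.18% at 32 hours, 2.96% at 48 hours, 6.1% at 72 hours, 13.7% at 96 hours, 11.3% at 120 hours and 25.5% at 168 hours. By 168h, 2 of the genes that fell were called higher than at 4h.

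Comparisons with 32h use no 24h or 4h library in the difference itself. At 48h none of the 151 genes passed the edgeR test against 32h (0% of all genes in either direction), with 7 of the genes that rose and 3 of those that fell at an unadjusted p under 0.05. For that step limma-voom called none of all genes, and DESeq2 called 127 of all genes, 1 of them a gene that rose. At 72h, 2 of the genes that rose were called still higher than at 32h (0.103% of all genes), the genes of ranks 37 and 45. Neither was called with the replicate block, without the 2 most abundant genes or with a filter of 1 CPM in 3 libraries, each of which gave 0 such genes, while DESeq2 gave 8. Rank 45 had 227, 244 and 211 CPM at 72h, against 109.7, 122 and 94.1 CPM at 32h. None of the genes that fell was called by edgeR at 72h in either direction (0.456% of all genes were lower), with 25 at an unadjusted p under 0.05. Of these genes limma-voom called none, and DESeq2 called 3 higher and 5 lower. At 96h, 3 of the genes that rose were called higher (18% of all genes) and 7 lower (11.1%), and of the genes that fell 17 were called higher and 27 lower. The balance of these last counts turned with the scaling, to 24 higher and 19 lower with DESeq2 size factors and 20 higher and 19 lower without the 2 most abundant genes, and DESeq2 itself gave 29 higher and 25 lower. At 120h, 3 of the genes that rose were called higher (19.8% of all genes) and 5 lower (8.25%), and of the genes that fell 22 were called higher and 12 lower. Without 120h replicate 1 the genes that fell gave 34 higher and 19 lower, and DESeq2 gave 34 higher and 13 lower. For the genes that rose, the count of 5 lower was 3 under either other scaling and 8 with limma-voom, and the count of 3 higher was 5 with DESeq2.

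By 168h, 24 of the 50 genes that rose were called lower than at 32h and 4 higher, where 18.5% of all genes were called lower and 29.3% higher. Their median log2 fold change between 168h and 32h was -1.68, against 0.28 for all genes. Of the genes that fell, 33 were called higher and 25 lower, with a median log2 fold change of 0.30. The count of 24 was 12 without 168h replicate 2 and 13 without 168h replicate 3. The count of 25 was 13 without 168h replicate 2, 14 without 168h replicate 3, 15 without 32h replicate 1 and 16 without 32h replicate 2. The count of 33 was 52 without 120h replicate 1.

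The genes that rose and then came down included both named ones. TRINITY_DN236788_c5_g3 had 3587, 1039.7 and 1510.1 CPM at 168h, against 12609.9, 38018 and 23769.5 CPM at 32h, a log2 fold change of -3.60 ± 0.99 (SE, n = 3 each, edgeR adjusted p = 0.00633). Its level at 72h spread from 20027 to 96960 CPM between libraries. TRINITY_DN243168_c3_g4 had 48.1, 1.88 and 1.14 CPM at 168h, against 113, 119.6 and 183 CPM at 32h (log2 fold change -3.03 ± 0.99, SE, n = 3 each, edgeR adjusted p = 0.017). Replicate 1 at 168h stood well above the other 2 libraries of that time in both genes. The same library was the highest of its time in the summed share of the 50 genes, at 0.88%, beside 0.461 and 0.488% in the others. Rank 25 likewise had 126, 32.1 and 27 CPM at 168h, against 297, 305 and 309 CPM at 32h.

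Of the genes that rose, 4 were called higher again. The most abundant, rank 20, had 23.3, 14.3 and 26.9 CPM at 24 hours, against 0, 1.29 and 0.931 CPM at 4 hours, and had 304, 317 and 391 CPM at 168 hours, against 6.66, 30.2 and 18.1 CPM at 32 hours. Its log2 fold change between 168h and 32h was 4.23 (edgeR adjusted p = 0.000783, n = 3 each). In between, it was already at 267, 328 and 320 CPM at 96h. Other genes that rose gave no call, such as rank 34, with 43.5, 32.1 and 35.6 CPM at 168h, against 34.7, 44.7 and 36.2 CPM at 32h.

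**Figure D4:**
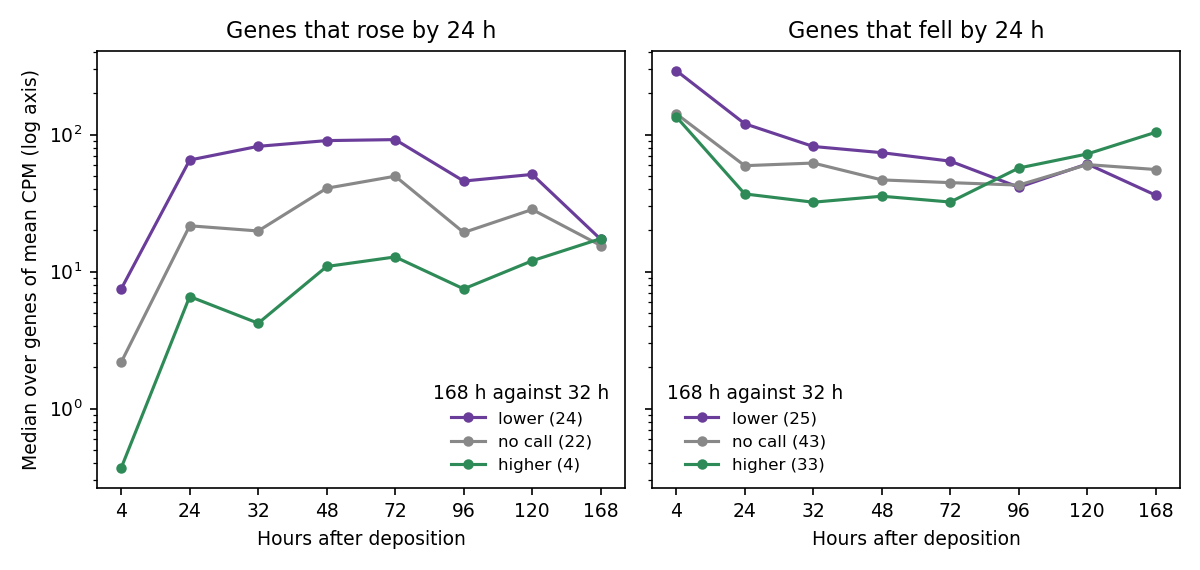
Lines give the median over genes of the mean CPM at each time (y, log axis) against hours after deposition (x), for the genes that rose (left) and the genes that fell (right), split by the call between 168h and 32h. The groups of 24 lower, 22 uncalled and 4 higher genes lie between 15.5 and 17.4 CPM at 168h on the left, and the 33 higher genes on the right climb to a median of 104 CPM. The split uses the 168h and 32h values shown.

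Of the 101 genes that fell, 24.8% were lower at 168h than at 32h and 32.7% higher, beside 18.5% and 29.3% of all genes, and examples of both are given. TRINITY_DN228216_c0_g1 had 53.5, 19.3 and 20.4 CPM at 168h, against 186, 186 and 117 CPM at 32h (log2 fold change -2.39 ± 0.65, SE, n = 3 each, edgeR adjusted p = 0.00586). TRINITY_DN222514_c0_g1 had 9.37, 4.15 and 6.81 CPM at 168h, against 29.2, 45.3 and 23.5 CPM at 32h (log2 fold change -2.26 ± 0.47, SE, n = 3 each, edgeR adjusted p = 0.000821). For rank 60 the mean was lower at each later time, with 521 CPM at 32 hours, 356 at 48 hours, 258 at 72 hours, 242 at 96 hours, 229.6 at 120 hours and 73.2 at 168 hours. These steps were not tested one by one.

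Among the genes that came back, rank 30 had 172, 189 and 138 CPM at 24h, against 421, 643 and 724 CPM at 4h. It then had 1293, 1695 and 1925 CPM at 168h, against 166, 193 and 203 CPM at 32h (log2 fold change 3.13, edgeR adjusted p = 9.78e-06, n = 3 each). Rank 57 had 46.6, 64.5 and 62.2 CPM at 24h, against 166, 147 and 156 CPM at 4h, and 311, 323 and 298 CPM at 168h. These are the 2 genes that were called higher at 168h than at 4h. Rank 14 had 522, 515 and 591 CPM at 168h, against 127, 107 and 126 CPM at 32h, and its 4h libraries had 308, 443 and 498 CPM.

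A gene was counted as first detected by 24h when it had at least 1 CPM in each 24h library and at most 3 counts over the 4h libraries, and as lost in the reverse case. By this rule 42 genes were first detected and 169 were lost. Of the first, 35 were tested and 13 were called higher by edgeR. Of the lost genes, 154 were tested and none was called by edgeR, with a smallest adjusted p of 0.129 and 117 at an unadjusted p under 0.05. DESeq2 called 13 of them lower and limma-voom 1. Both sets were chosen by the 24h and 4h values that these tests compare, so low p-values are partly built in. Over all 15587 genes tested, edgeR called 0.321% higher and 0.648% lower, and 1555 had an unadjusted p under 0.05 downward. The counts move with the rule, which becomes easier to meet when a library is left out. First detected genes numbered 756 without 24h replicate 3, 271 without 24h replicate 2, 85 without 4h replicate 1, 72 without 4h replicate 2 and 65 without 4h replicate 3. Lost genes numbered 1061 without 4h replicate 1, 416 without 4h replicate 3 and 285 without 24h replicate 3.

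The 42 first detected genes were at 1 CPM or more in every library of a later time for 16 genes at 32 hours, 31 at 48 hours, 29 at 72 hours, 23 at 96 hours, 25 at 120 hours and 10 at 168 hours. The 169 lost genes followed libraries rather than times. They summed to 468, 3601 and 573 CPM in the 4h libraries, so that replicate 2 held most of their summed CPM. They were at 1 CPM or more for between 133 and 152 genes in 6 later libraries, namely 48h replicates 2 and 3, 72h replicates 1 and 2, 96h replicate 2 and 120h replicate 3. In every other library after 4h at most 34 of the 169 reached that level.

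A larger set was chosen to differ between the 24h libraries. There were 714 genes at 1 CPM or more in 24h replicates 1 and 2 but under 1 CPM in 24h replicate 3. They also had at most 3 counts over the 4h libraries. A low level in 24h replicate 3 was thus part of the rule, and 709 of them had no count there. The 714 genes summed to 3939, 4346 and 2.42 CPM in the 24h libraries, against 10.3, 2.41 and 4.19 CPM in the 4h libraries. Of these, 544 were tested and none was called between 24h and 4h by edgeR, with 510 at an unadjusted p under 0.05. DESeq2 called 117 of them higher and limma-voom none. The 714 genes were chosen by values that these tests compare, so low p-values are partly built in. Over all 15587 genes tested, 1550 had an edgeR unadjusted p under 0.05 upward. They reached 1 CPM for 393 to 566 genes in the 32h libraries and for 679 and 666 in 48h replicates 1 and 3. In 48h replicate 2, 72h replicates 1 and 2, 96h replicate 2 and 120h replicate 3, at most 8 of the 714 did. Those 5 libraries are also 5 of the 6 that held most of the lost genes, and 48h replicate 3 held most of both sets. What these sets share beyond their libraries was not tested, nor whether their RNA comes from the embryos or from other material in some cocoons, so first detected and lost describe RNA in whole cocoons.

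**Figure D5:**
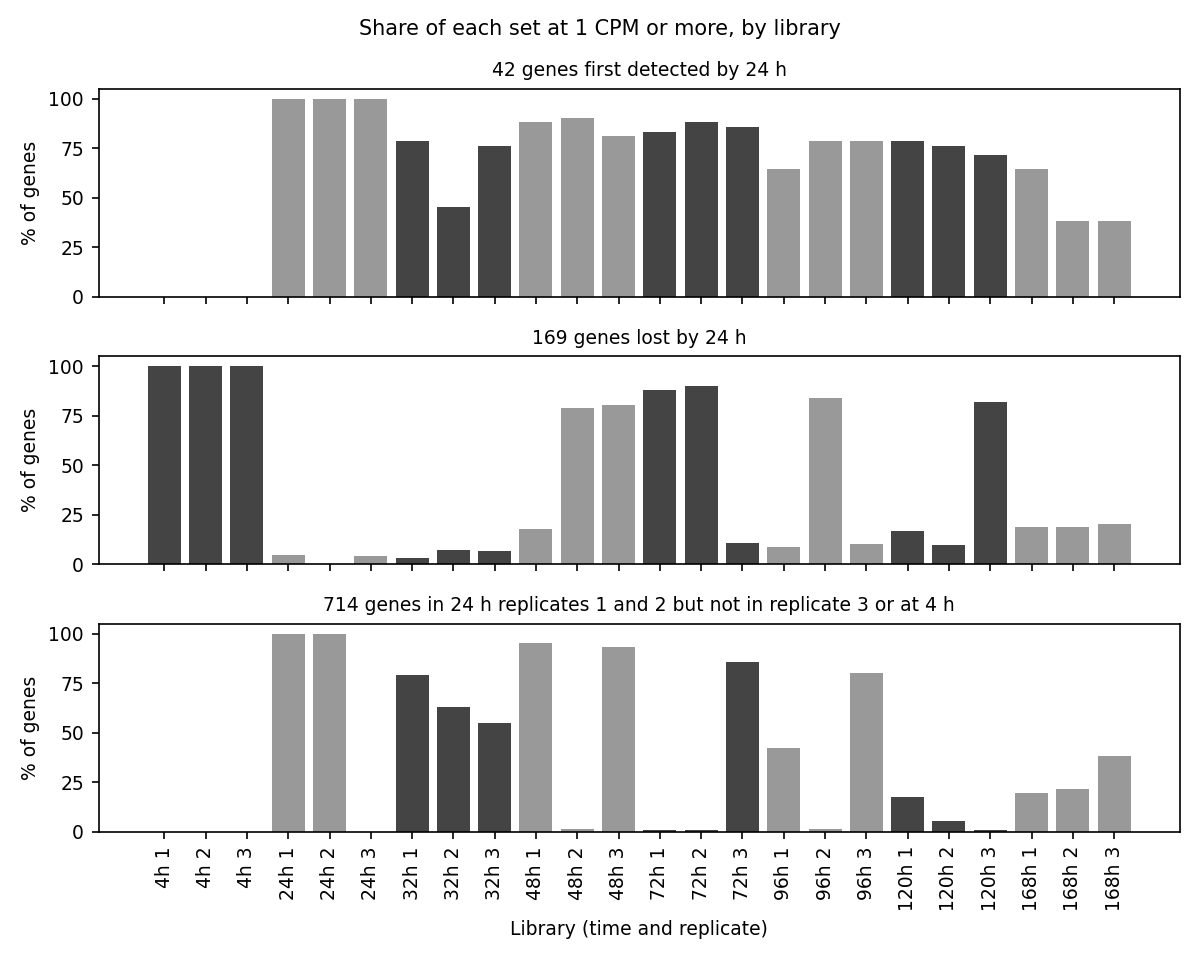
Bars give the percent of each gene set at 1 CPM or more (y, from 0) in each of the 24 libraries (x, time and replicate, in order of time). The 42 first detected genes are present in 38.1% or more of the set in every library from 24h on, while the 169 lost genes and the 714 genes of 24h replicates 1 and 2 switch between libraries of the same time. For the 714 genes the difference between the 24h libraries was part of the rule.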

How the data were processed

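RNA from whole cocoons was sequenced as stranded polyA libraries, per the labels' protocols. Trimmomatic 0.32, FastQC 0.11.2, RSEM, R 4.2.2, edgeR 3.40.2 and limma 3.54.2 are listed, with no role, per the submitters' processing notes. For aligner and genome build, the answer is not given in the sources used here. As the tables are named, the authors deposited expected counts per assembled transcript, not normalised, and a second table of TMM-scaled signal per transcript whose unit is not stated. All per-sample columns were mapped by name.

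Expected counts were summed per assembler gene, rounded and filtered with filterByExpr, which kept at least 99% of the counts of each library. One edgeR 4.0.16 model (R 4.3.3; TMM, glmQLFit, glmQLFTest) covered all 24 libraries, with a common biological coefficient of variation of 0.684. Adjusted p-values are Benjamini-Hochberg over the 15587 genes tested, with a threshold of 0.05. CPM used TMM-scaled library sizes, and mean log2 CPM a prior count of 2. Standard errors were back-calculated from the coefficient and the F statistic and are no separate estimate beside p. Intervals of counting error are not given, and the floors of 3 counts cover counting error only. Replicates of one time differed by at least 11.2 in chi-square per degree of freedom, so none agreed within sampling noise.

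The 4 named genes are the 2 largest rises and the 2 largest falls among called genes that had no overlap, 10 CPM or more throughout the higher time and over 3 counts throughout the lower one. Genes given by rank, and the sets of 714 and of genes called in every fit leaving out 1 library, were chosen after their values were seen. The comparison, the gene sets and the lists were chosen with earlier results of these data known. Marker and pathway lists could not be matched to unnamed IDs. On simulated counts for 14176 genes with 100 genes changed at each fold, the edgeR test of 24h against 4h recovered 34% at 4-fold and 62% at 16-fold, with 2 false calls. The simulated counts were drawn from edgeR's own model with its estimates of spread, and only genes of 1 CPM or more were changed. Alternatives were DESeq2 1.42.0 and its scaling, limma 3.58.1 as voom and as trend on log2(deposited value + 1), other filters and thresholds, transcripts, the 6 libraries alone, a replicate block and each library left out.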

Additional observations from a re-analysis of the deposited data

How the results depend on the processing

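The counts of genes called between 24h and 4h depended on the test more than on the filter. DESeq2 called 1190 genes (650 up, 540 down), limma-voom 303 (91 up, 212 down) and edgeR on only the 6 libraries 731 (293 up, 438 down). An adjusted p under 0.01 left 50 (17 up, 33 down), and transcripts in place of gene sums gave 23 (13 up, 10 down). Leaving out the 2 most abundant genes gave 152 down. DESeq2 size factors (165), no filter on low counts (144), 1 CPM in 3 libraries (106) and limma-trend on the deposited table (139) stayed within 1.5 times of 151. Leaving out 1 library gave 40 to 442 calls, 10 to 91 up and 20 to 351 down. The cause of these differences was not tested. In simulated counts of 24h against 4h, DESeq2 recovered 46% of genes changed 4-fold and 75% at 16-fold with 24 false calls, limma-voom 38% and 63% with 13, and edgeR 34% and 62% with 2. Those counts were drawn from edgeR's own model and spread, which sets no genes to switch between libraries of one time. They cannot rank the tools on these data.

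With the replicate number as a block, 124 genes were called (43 up, 81 down), and the 168h against 32h counts were 28 lower and 3 higher of the genes that rose, and 24 lower and 34 higher of those that fell. Deviations of same-numbered 24h and 4h libraries correlated at 0.157, -0.011 and 0.16 for replicates 1, 2 and 3. Libraries of replicates 1 and 3 correlated best with their own number. The 24h replicate 2 did not, with 0.025 for 4h replicate 1. The numbers were not taken to pair samples, and pairing was not tested further.

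Between 168h and 32h, 1 of the 32h and 168h libraries or 120h replicate 1 was left out in turn. Of the genes that rose, 12 to 31 were then called lower and 3 to 4 higher. Of the genes that fell, 13 to 23 were called lower and 29 to 52 higher. Leaving out 120h replicate 1 in the later comparisons was added after the data were seen. First detected genes numbered 96 at 0.5 CPM, 13 at 2 CPM, 167 in libraries thinned to the shallowest, and 52 to 756 with 1 library left out. Lost genes numbered 458, 47, 301, and 194 to 1061 in the same order. The place of the genes that fell was 0.999 at 72 hours, 0.918 at 96 hours, 0.832 at 120 hours and 0.73 at 168 hours with DESeq2 size factors, and 0.899 at 120 hours and 0.841 at 168 hours without the 2 most abundant genes. At the depth of the shallowest 24h library, 3 counts equal 1.59 CPM, so genes under that level are limited by counting.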
